A study of Mus musculus with 7 samples.

Results

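The genes of the voltage-gated sodium and calcium channels were examined in the cerebral cortex of mice without a working creatine (Cr) transporter. They were taken from the deposited expression table by symbol: the pore-forming sodium channel subunits (Scn genes whose symbol ends in a), the sodium channel beta subunits (Scn genes whose symbol ends in b), the pore-forming calcium channel subunits (Cacna1a to Cacna1s), the alpha2delta subunits (Cacna2d1 to Cacna2d4) and the calcium channel beta subunits (Cacnb1 to Cacnb4). This gave 32 of the 24346 genes in the table. The rule used symbols only and no measured value, although it was chosen with earlier results of these data known. One symbol is an older name, since Scn2a1 is the gene now called Scn2a.

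The animals were male mice at postnatal day 100, 1 library each. The 4 CrT-/y mice (KO in the labels, numbered 0 to 3) were hemizygous for a deletion of exons 5 to 7 of Slc6a8, the X-linked gene of the Cr transporter, and the 3 CrT+/y mice (WT, numbered 1 to 3) were their wild-type littermates. The deletion is carried by every cell of the body and not by a single cell type. RNA was extracted from whole cortex, sequenced in read pairs from poly(A) libraries, and summarized by the authors as FPKM, the number of fragments scaled to transcript length and to library size. For the test of genotype, limma was fitted to log2(FPKM + 0.1) of the 12988 genes whose mean over the 7 mice reached 1 FPKM. A gene was called at a Benjamini-Hochberg adjusted p-value under 0.1, the threshold of the study.

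Sodium channels open on depolarization and carry the upstroke of the action potential; their pore is a single large subunit, and small beta subunits set gating and position in the membrane. Calcium channels turn depolarization into calcium entry. L-type pores couple activity to gene expression, P/Q-, N- and R-type pores trigger transmitter release and shape dendritic signals, and T-type pores open near the resting potential and favor burst firing, while alpha2delta and beta subunits bring the P/Q-, N-, R- and L-type pores to the membrane. The study also recorded the firing of cortical neurons and, in parvalbumin interneurons, sodium and potassium currents. The slices came from other and younger mice, for the parvalbumin cells from a cross of this line with PV-Cre mice. With cells as units, the paper reports more firing in mutant pyramidal neurons and less firing and smaller currents in mutant parvalbumin cells. The question here is whether transcripts of the channels that underlie firing differed in level between the genotypes.

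Slc6a8, the targeted gene, measured 12.4, 14.9, 14.7 and 15.7 FPKM in CrT-/y mice against 32.3, 29.6 and 28.05 FPKM in CrT+/y mice, as the labels require; the values also count exons outside the deletion. FPKM are already divided by library size, and the depth of each library is not given in the table; the depth estimated from weakly expressed genes spanned 1.43-fold. Cortical markers were present in all animals, with Slc17a7 between 542 and 670 FPKM. Among 6 excitatory neuron markers 2 were lower in CrT-/y mice, one of them Neurod6 (adjusted p = 0.061 with limma), and among 6 inhibitory neuron markers Gad1 was higher (adjusted p = 0.097 with limma). Neither list moved as a whole, since 5 of 6 excitatory and 2 of 6 inhibitory estimates were below 0. Neurod2 (log2 fold change 0.17) and Pvalb (-0.54) went against the called members of their lists and were not called. Among 4 endothelial markers Pecam1 and Flt1 were lower (adjusted p = 0.062 and 0.042 with limma), and Cdhr1, 1 of 2 olfactory bulb markers, was higher (adjusted p = 0.079 with limma). No marker of the lists for astrocytes (5 tested, smallest p in Aldh1l1), oligodendrocytes (6, Mbp), their precursors (2, Cspg4), microglia (5, Csf1r), choroid plexus and ependyma (3, Ttr), striatal projection neurons (7, Rgs9) or fibroblasts and meninges (4, Col1a2) was called. Markers of neighboring tissue differed between animals: the summed FPKM of the 7 striatal markers ran from 190.2 to 463 in CrT-/y and from 109.0 to 428 in CrT+/y mice, and Ttr was at 379 FPKM in CrT+/y replicate 2 against 0.32 to 47.9 FPKM elsewhere.

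Of the 32 channel genes, 24 reached a mean of 1 FPKM and were tested: 5 of 10 sodium pores, all 4 sodium beta subunits, 2 of 4 L-type pores, all 3 P/Q-, N- and R-type pores, all 3 T-type pores, 3 of 4 alpha2delta subunits and all 4 calcium beta subunits. One was called, Scn8a, which was lower in CrT-/y mice, and 0 were higher. This is 4.17% of the tested channel genes lower, where 7.25% of all tested genes were lower and 2.90% were higher. At an unadjusted p-value under 0.05 the count with limma was also 1 of 24 (4.17%), where 25.0% of all tested genes, 3252 in number, passed. No channel gene but Scn8a was called with array weights, another pseudocount or another filter on low values. The genotypes did not overlap in 2 of the 24 tested channel genes, Scn8a and Scn1a (8.33%), against 21.6% of all tested genes. Estimates were below 0 for 17 of the 24 (70.8%, against 58.2% of all tested genes), with a median log2 fold change of -0.04 against -0.03. The sign of this small shift depended on scaling: 11 of 24 were below 0 after quantile normalization, 9 after upper quartile scaling, 14 after median centring and 9 after a correction for transcript length, where the medians were 0.01, 0.02, -0.00 and 0.02.

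**Figure D1:**
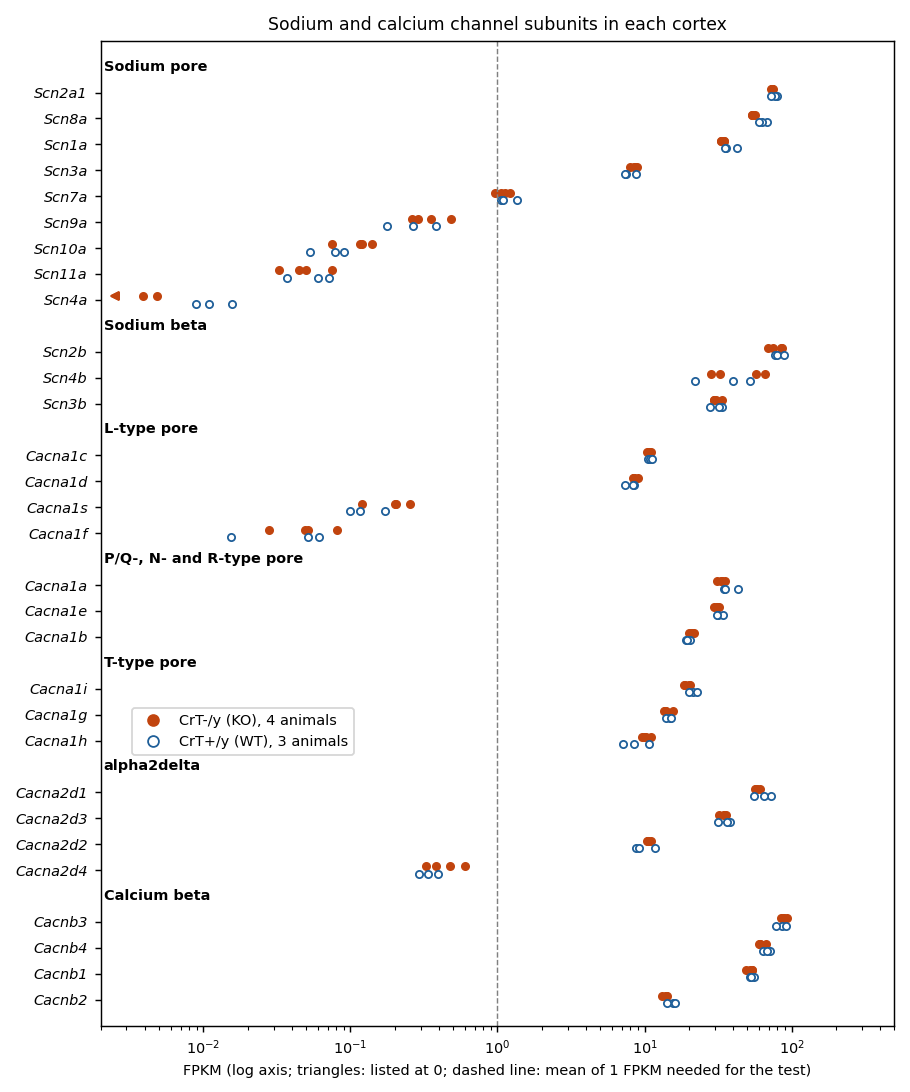
FPKM of 30 of the 32 channel genes in each animal on a log axis, by subunit group; filled points are the 4 CrT-/y and open points the 3 CrT+/y mice, triangles stand for values listed at 0, and the dashed line marks the mean of 1 FPKM needed for the test. The levels run from Cacnb3 with a mean of 87.2 FPKM down to Scn4a under 0.02 FPKM, and for most genes the points of both genotypes lie on top of each other.

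The intervals show how large a difference the data leave room for. The 95% interval of the fold change, unadjusted, lay within a 1.2-fold change in either direction for 11 of the 24 tested genes and within 1.3-fold for 21, the exceptions being Cacna1h, Scn4b and Scn7a. It lay within 1.5-fold for all but Scn4b. By subunit group the median log2 fold change was -0.09 for sodium pores, -0.03 for sodium beta subunits, 0.04 for L-type pores, -0.06 for P/Q-, N- and R-type pores, -0.04 for T-type pores, -0.04 for alpha2delta and -0.08 for calcium beta subunits.

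**Figure D2:**
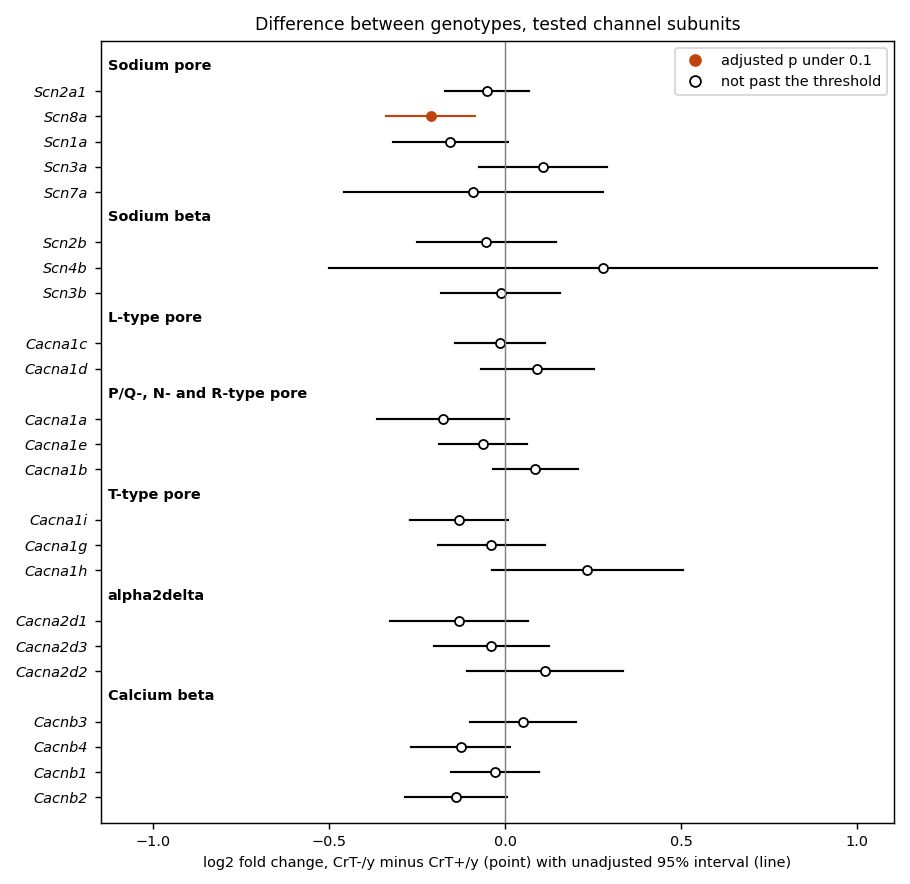
Log2 fold change of 23 of the 24 tested channel genes (CrT-/y minus CrT+/y, horizontal axis) with unadjusted 95% intervals, by subunit group and, within a group, by level; the filled point is past the adjusted threshold. Only the interval of Scn8a lies wholly on one side of 0, and that of Scn4b is the widest, from -0.50 to 1.06.

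Scn8a encodes Nav1.6, the main sodium channel of the distal axon initial segment and of nodes of Ranvier, where spikes start and are renewed. In GRCm38, the mm10 assembly, it occupies chromosome 15 from 100869858 to 101045938 (plus strand), and its longest principal transcript has 27 exons and 11293 bp. Its level was 53.8, 54.5, 53.8 and 56.7 FPKM in CrT-/y and 67.7, 62.4 and 60.2 FPKM in CrT+/y mice. All CrT-/y mice lay under all CrT+/y mice, and the CrT-/y values lay within 3 FPKM of each other. Mean levels were 54.7 ± 1.39 FPKM (SD, n = 4) and 63.4 ± 3.82 FPKM (SD, n = 3), and the CrT-/y level was 86.2% of the CrT+/y level. On the log2 scale the difference was -0.21 with a standard error of 0.056 and a 95% interval of -0.34 to -0.09 (limma, adjusted p = 0.067). The exact permutation test, two-sided, gave p = 0.0286, below which groups of 4 and 3 cannot go. In bulk tissue, fewer cells that express the gene and less of its RNA per cell cannot be told apart.

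The direction of the Scn8a difference was the same in all 21 alternative settings, with log2 fold changes from -0.25 to -0.13, but the call was kept in 7 of them and lost in 14, with adjusted p from 0.017 to 0.297 with limma. It was lost under each scaling between animals (adjusted p = 0.114 after quantile normalization, 0.124 after upper quartile scaling and 0.117 after median centring), without a variance trend (0.109), with the transcript length correction (0.178) and with striatal marker level as a covariate (0.143). It was also lost on leaving out any animal except CrT+/y replicate 3: the adjusted p was 0.140, 0.173, 0.175 and 0.124 when CrT-/y replicates 0, 1, 2 and 3 were omitted in turn, and 0.169 and 0.111 when CrT+/y replicates 1 and 2 were. Single markers of both main neuron classes were called, where 7.25% of all tested genes were lower and 2.90% higher. The summed levels of both classes overlapped between the genotypes. The 6 excitatory markers summed to between 1539 and 1672 FPKM in CrT-/y and between 1553 and 1894 FPKM in CrT+/y mice, with 2 of 6 lower and none at 0, and the 6 inhibitory markers to between 842 and 981 and between 907 and 926 FPKM, with 1 of 6 higher and none at 0. Their part in the Scn8a difference was not tested.

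Scn1a encodes Nav1.1, the channel on which fast-spiking interneurons depend most. It was at 34.5, 33.2, 33.1 and 34.5 FPKM in CrT-/y and at 42.7, 35.7 and 35.1 FPKM in CrT+/y mice. The groups did not overlap, yet the gap between the highest CrT-/y and the lowest CrT+/y mouse was small, and CrT+/y replicate 1 stood well above the rest. The log2 fold change of -0.16 (95% interval -0.32 to 0.01) did not pass the threshold (adjusted p = 0.216 with limma), although the exact permutation test over single values gave two-sided p = 0.0286. Scn2a1 encodes Nav1.2, the channel of the proximal initial segment and of unmyelinated axons, and was the pore gene with the highest level. It was at 72.4, 75.2, 73.3 and 74.0 FPKM in CrT-/y and at 80.2, 77.3 and 71.9 FPKM in CrT+/y mice, so the genotypes overlapped (log2 fold change -0.05, 95% interval -0.17 to 0.07).

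Scn3a encodes Nav1.3, known for high expression before birth and low expression in the adult. It was at 8.56, 8.45, 8.87 and 7.92 FPKM in CrT-/y and at 7.45, 8.75 and 7.36 FPKM in CrT+/y mice, again with overlap (0.11, adjusted p = 0.434 with limma). Scn7a, an atypical member that senses sodium in glia rather than voltage, was close to the lower limit of the test with 0.958 to 1.36 FPKM and a log2 fold change of -0.09 (95% interval -0.46 to 0.28). In the fit without a filter, 0 of the 8 channel genes under the limit were called (adjusted p from 0.259 to 0.875 with limma).

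The other sodium pores are known from tissues outside the cortex. The sensory neuron channels Scn9a, Scn10a and Scn11a ranged from 0.177 to 0.480, from 0.0528 to 0.141 and from 0.0325 to 0.07495 FPKM. The muscle channel Scn4a was listed at 0 in CrT-/y replicates 1 and 3 and at 0.0048 and 0.0039 FPKM in replicates 0 and 2, against 0.0109, 0.0156 and 0.0089 FPKM in CrT+/y replicates 1, 2 and 3. These Scn4a groups did not overlap, but the values are near the bottom of the table and no fold is given.

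A group of 5 sodium pores, Scn3a, Scn2a1, Scn1a, Scn9a and Scn7a in this order, lies in one cluster on chromosome 2 of GRCm38 from 65457118 to 66784914, and Scn10a and Scn11a are neighbors on chromosome 9 from 119608456 to 119825456. Neighbors in the chromosome 2 cluster had very different levels, with means of 8.19 FPKM for Scn3a, 74.9 for Scn2a1, 35.5 for Scn1a, 0.316 for Scn9a and 1.12 for Scn7a. Scn8a, the called gene, lies outside both groups.

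Because FPKM of animals depend on how libraries are scaled to each other, the share of each pore within its own family was also computed in each animal, where scaling cancels. Scn8a made up 31.3%, 31.4%, 31.3% and 32.2% of the summed sodium pore FPKM in CrT-/y and 33.8%, 33.3% and 34.1% in CrT+/y mice, without overlap. Scn2a1 made up 42.0%, 43.3%, 42.7% and 42.0% against 40.1%, 41.3% and 40.8%, without overlap in the other direction. Mean shares were 31.5% ± 0.45 against 33.8% ± 0.39 for Scn8a and 42.5% ± 0.62 against 40.7% ± 0.61 for Scn2a1 (SD, n = 4 and 3). Shares within a family depend on each other, so a lower share of Scn8a raises the summed share of the other pores. The level of Scn2a1 itself was not higher in CrT-/y mice (log2 fold change -0.05). A trend of FPKM with transcript length would not cancel in shares. The ratio of Scn8a to Scn2a1, chosen after these values were seen, was 0.725 to 0.767 in CrT-/y and 0.808 to 0.844 in CrT+/y mice. The share of Scn1a overlapped between genotypes (19.1% to 20.0% and 19.1% to 21.3%), as did that of Scn3a (4.50% to 5.17% and 3.73% to 4.67%). The summed sodium pore FPKM was 173 ± 1.96 (SD, n = 4) in CrT-/y and 188 ± 11.8 (SD, n = 3) in CrT+/y mice, and its groups were separated only by the distance from 176.1 to 176.5 FPKM. These shares, ratios and sums were not tested.

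**Figure D3:**
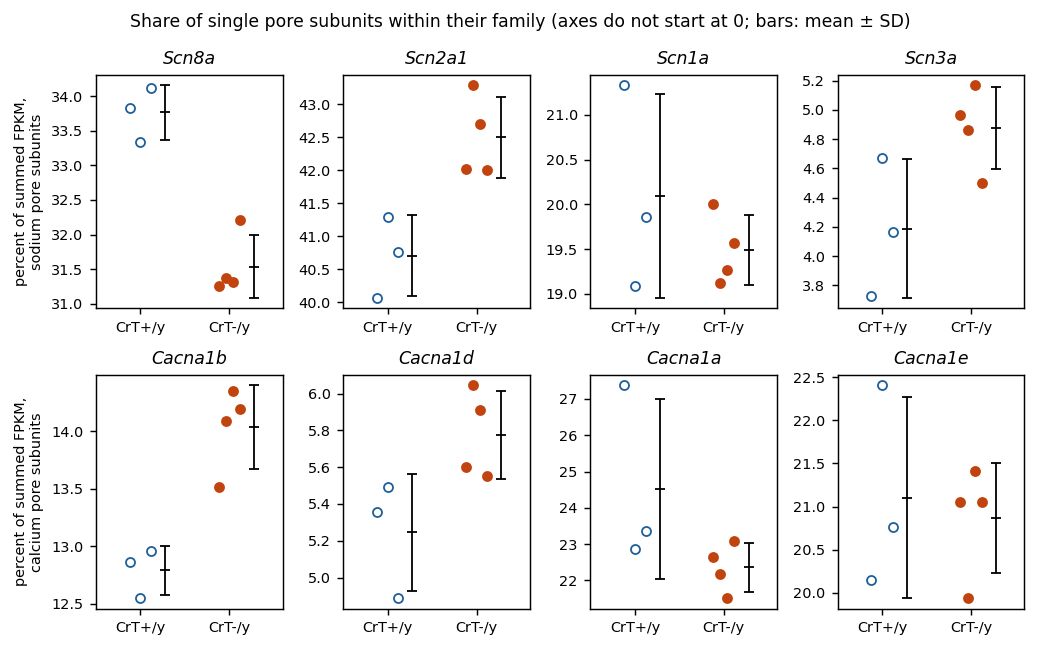
Share of a single pore gene in the summed FPKM of its family, in percent, for 4 sodium pores (upper row) and 4 calcium pores (lower row); points are animals, bars the mean ± SD, and the axes do not start at 0. The genotypes separate for Scn8a, Scn2a1, Cacna1b and Cacna1d and overlap for Scn1a, Scn3a, Cacna1a and Cacna1e.

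The sodium channel beta subunits, which modulate gating and act as adhesion molecules, were all tested. Scn2b was at 84.3, 74.8, 69.2 and 86.5 FPKM in CrT-/y and at 77.0, 79.1 and 88.5 FPKM in CrT+/y mice (-0.05). Scn3b ranged from 28.02 to 33.6 FPKM over the 7 animals (-0.01). For these beta subunits the genotypes overlapped and the animals of one genotype differed among themselves more than the means of the genotypes did.

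Scn4b, the beta subunit linked to resurgent sodium current and known to be abundant in striatal projection neurons, was the most variable of the tested channel genes. It was at 57.4, 65.6, 28.2 and 32.8 FPKM in CrT-/y and at 21.9, 52.0 and 39.6 FPKM in CrT+/y mice, a spread of 2.99-fold, where 22 of the 24 tested genes varied by at most 1.5-fold. High and low animals occurred in both genotypes, and the log2 fold change of 0.28 had an interval from -0.50 to 1.06 (adjusted p = 0.650 with limma). Scn4b and Scn2b are neighbors on chromosome 9 of GRCm38, 8324 bp apart on the same strand. CrT-/y replicate 1, the highest in Scn4b, had the lowest Scn2b level after CrT-/y replicate 2.

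The levels of Scn4b followed the striatal markers in the same libraries. The mean log2 level of the 7 markers, which include Drd1, Drd2, Adora2a, Ppp1r1b and Penk, was 2.89, 5.43 and 4.19 in CrT+/y replicates 1, 2 and 3 and 5.26, 5.49, 4.59 and 4.10 in CrT-/y replicates 0, 1, 2 and 3. The animal lowest in these markers, CrT+/y replicate 1, was lowest in Scn4b, and the animals with the 3 highest marker levels were the 3 highest in Scn4b. In a limma fit with this marker level beside genotype, a fit added after the data had been seen, the slope of Scn4b was 0.58 log2 units per log2 unit of marker level (standard error 0.10). It did not pass the threshold over all genes (adjusted p = 0.114 with limma), which 0.293% of tested genes and 0 channel genes did. In this fit the genotype difference of Scn4b turned from 0.28 to -0.13. The marker level itself did not separate the genotypes (mean 4.86 in CrT-/y and 4.17 in CrT+/y mice; exact permutation test, two-sided p = 0.457), and 0 of the 7 markers were called and none was at 0.

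**Figure D4:**
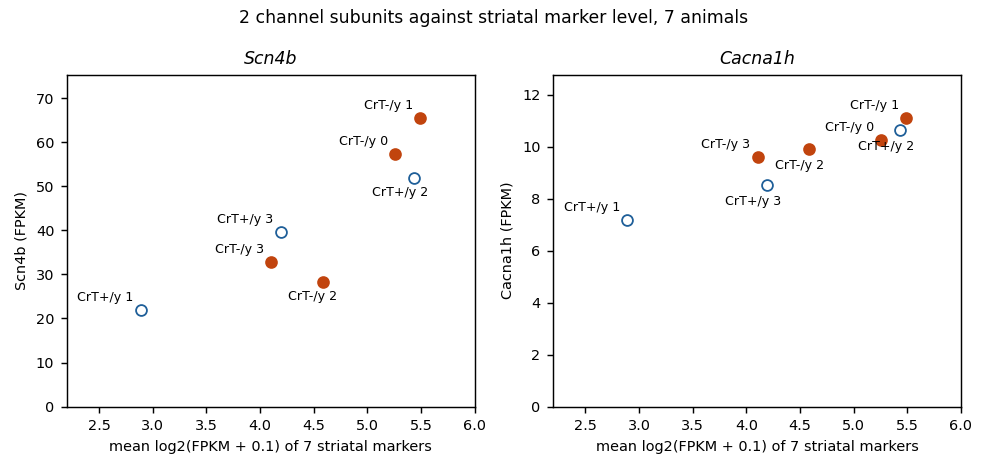
FPKM of Scn4b (left) and Cacna1h (right) against the mean log2(FPKM + 0.1) of 7 striatal markers, 1 point per animal; filled points are CrT-/y, open points CrT+/y mice, and the numbers are the replicate numbers. Both genes are lowest in CrT+/y replicate 1 and highest in CrT-/y replicate 1, the animals with the lowest and the highest marker level.

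The T-type pore Cacna1h (Cav3.2) had the same lowest and the same highest animal as Scn4b. It was at 10.3, 11.1, 9.93 and 9.60 FPKM in CrT-/y and at 7.19, 10.7 and 8.52 FPKM in CrT+/y mice. CrT+/y replicate 2 lay among the CrT-/y mice and the other CrT+/y mice below them, with a log2 fold change of 0.23 (95% interval -0.04 to 0.50, adjusted p = 0.257 with limma). In the fit with striatal marker level its slope was 0.20 with a standard error of 0.040 (limma, adjusted p = 0.202), and its genotype difference was 0.10. Cacna1i (Cav3.3), the most abundant T-type pore in these libraries, was at 20.4, 20.0, 18.8 and 18.7 FPKM in CrT-/y and at 21.2, 20.2 and 22.6 FPKM in CrT+/y mice (-0.13, adjusted p = 0.223 with limma). Cacna1g (Cav3.1), the main thalamic T-type pore, was at 13.6, 14.02, 13.8 and 15.7 FPKM against 14.9, 13.97 and 15.04 FPKM (-0.04). Neither separated the genotypes.

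Among the pores that serve transmitter release, Cacna1a (Cav2.1, P/Q-type) was at 33.7, 33.0, 31.0 and 35.3 FPKM in CrT-/y and at 43.2, 34.8 and 35.2 FPKM in CrT+/y mice. Mean levels were 33.2 ± 1.76 FPKM (SD, n = 4) and 37.8 ± 4.69 FPKM (SD, n = 3), and most of this distance came from CrT+/y replicate 1. The log2 fold change was -0.18 (95% interval -0.36 to 0.01, adjusted p = 0.220 with limma), and without CrT+/y replicate 1 it was -0.08. Cacna1b (Cav2.2, N-type) was at 20.1, 20.96, 20.7 and 21.7 FPKM against 20.3, 19.1 and 19.6 FPKM (0.09, adjusted p = 0.348 with limma). Cacna1e (Cav2.3, R-type) was at 31.3, 29.7, 30.9 and 32.2 FPKM against 31.8, 34.1 and 31.3 FPKM (-0.06, adjusted p = 0.503 with limma).

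Within the calcium pores the shares of Cacna1b and of Cacna1d did not overlap. Cacna1b made up 13.5%, 14.1%, 14.3% and 14.2% of the summed calcium pore FPKM in CrT-/y and 12.9%, 12.5% and 13.0% in CrT+/y mice. Cacna1d made up 5.60%, 6.04%, 5.91% and 5.55% against 5.36%, 5.49% and 4.89%. The share of Cacna1a ranged from 21.5% to 23.1% in CrT-/y and from 22.9% to 27.4% in CrT+/y mice. Hence the ratio of N-type to P/Q-type pore transcripts, Cacna1b to Cacna1a, was 0.597 to 0.667 in CrT-/y and 0.470 to 0.555 in CrT+/y mice, a ratio also chosen after its values were seen. Counting both pore families and the auxiliary subunits, the share did not overlap for 4 of the 24 tested genes (16.7%), Scn8a, Scn2a1, Cacna1b and Cacna1d. Shares were not computed for other genes; in level, 21.6% of all tested genes did not overlap.

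Both tested L-type pores overlapped between genotypes. Cacna1c (Cav1.2), the main L-type channel of the brain, was at 10.8, 10.7, 10.4 and 11.0 FPKM in CrT-/y and at 10.5, 10.9 and 11.2 FPKM in CrT+/y mice, with 1.07-fold between the lowest and the highest animal, the narrowest spread of the tested channel genes. Its log2 fold change was -0.02 (95% interval -0.14 to 0.11). Cacna1d (Cav1.3) was at 8.32, 8.995, 8.52 and 8.48 FPKM against 8.44, 8.37 and 7.38 FPKM (0.09, adjusted p = 0.459 with limma). The skeletal muscle and retinal L-type pores Cacna1s and Cacna1f stayed under the limit of the test, with ranges of 0.09998 to 0.253 and 0.0155 to 0.0813 FPKM.

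The alpha2delta subunits bind the pore outside the cell and raise its number at the membrane, and alpha2delta-1 is the target of gabapentin. Cacna2d1 was at 57.7, 58.3, 56.2 and 60.8 FPKM in CrT-/y and at 72.9, 64.7 and 55.1 FPKM in CrT+/y mice, with CrT+/y mice on both sides of the CrT-/y range (-0.13, adjusted p = 0.371 with limma). Cacna2d2 was at 10.4, 10.6, 10.6 and 11.0 FPKM against 8.80, 11.8 and 9.21 FPKM (0.11, adjusted p = 0.508 with limma). Cacna2d3 was at 34.8, 35.8, 34.7 and 32.0 FPKM against 31.8, 38.1 and 36.3 FPKM (-0.04). All 3 overlapped between genotypes, and for each of them the CrT+/y mice were spread more widely than the CrT-/y mice (SD 8.93, 1.65 and 3.24 against 1.92, 0.248 and 1.64 FPKM). Cacna2d4, known from retina, ranged from 0.294 to 0.601 FPKM and was not tested.

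The calcium channel beta subunits bind the pore inside the cell and promote its trafficking and opening. Cacnb2 was at 14.05, 14.2, 14.1 and 13.1 FPKM in CrT-/y and at 15.6, 16.0 and 14.2 FPKM in CrT+/y mice, where the lowest CrT+/y mouse met the highest CrT-/y mouse (-0.14, adjusted p = 0.209 with limma). Cacnb4, mutated in the lethargic mouse, was at 67.1, 60.7, 61.1 and 60.1 FPKM against 71.7, 63.8 and 68.5 FPKM (-0.13, adjusted p = 0.236 with limma). Cacnb3, the most abundant of the calcium channel genes, was at 87.7, 88.3, 84.4 and 93.5 FPKM against 86.3, 78.1 and 92.25 FPKM (0.05). Cacnb1 ranged from 48.9 to 55.2 FPKM over the 7 animals (-0.03). None of the 4 separated the genotypes.

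Single CrT+/y mice decided what else was called. Without CrT+/y replicate 3, 4 channel genes were lower in CrT-/y mice: Scn8a (-0.25, adjusted p = 0.017 with limma), Cacna2d1 (-0.24, 0.034), Cacnb2 (-0.19, 0.056) and Scn1a (-0.21, 0.081). This is 16.7% of the 24, where 18.4% of all tested genes were lower in the same fit. Without CrT+/y replicate 2, 0 were lower and 2 were higher, Cacna1h (0.38, adjusted p = 0.085 with limma) and Cacna2d2 (0.24, 0.095). This is 8.33% of the 24, where 1.88% of all tested genes were higher and 3.92% lower in that fit. The omitted mouse had the highest striatal marker level of the CrT+/y mice, 5.43, and Ttr at 379 FPKM. In the fit of all 7 animals with striatal marker level, the genotype differences were 0.10 for Cacna1h and 0.04 for Cacna2d2. The part of neighboring tissue in these 2 calls was not tested. Leaving out any other animal gave 0 calls among the channel genes.

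Channel transcripts are long, and FPKM divide by length. The tested channel genes had a median transcript length of 7632 bp against 3083 bp for all tested genes, and 21 of 24 were longer than that median. Over all tested genes the median log2 fold change was 0.02 for transcripts under 2000 bp, -0.04 for those from 2000 to 5000 bp and -0.06 for those of 5000 bp or more. Removing the trend with length from each animal gave -0.14 for Scn8a and raised the number of all genes called higher from 377 to 577. Exons of 9 of the 32 genes overlap an exon of another gene on the opposite strand, among them the tested genes Cacna1a, Cacna1d, Cacna1h, Cacna2d2, Cacnb1, Cacnb2 and Cacnb4. Whether the authors' counting used strand is not given in the sources used here, so reads of such pairs may not be told apart. Scn8a, Scn1a and Scn2a1 have no such overlap.

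Genes whose products hold or modulate the channels were read from 5 lists. Of 43 genes, 42 are in the table under a current or older symbol and 34 were tested. Of these, 9 were lower in CrT-/y mice (26.5%, against 7.25% of all tested genes) and 0 were higher. Estimates were below 0 for 31 of the 34, against 58.2% of all tested genes. The median log2 fold change was -0.18, against -0.03 for all tested genes. This count of signs and this median are given for the main fit only. The lists were put together with earlier results of these animals known, so these counts are a description.

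Of 12 sodium channel partners, 3 were lower. Ank3, ankyrin-G, which anchors sodium channels at the axon initial segment, was at 51.8, 48.1, 46.7 and 47.0 FPKM in CrT-/y and at 61.4, 58.7 and 52.1 FPKM in CrT+/y mice (log2 fold change -0.24, adjusted p = 0.080 with limma). Nfasc, neurofascin, the adhesion molecule of initial segments and nodes, was at 30.8, 31.2, 32.2 and 30.7 FPKM against 34.8, 37.5 and 38.3 FPKM (-0.24, adjusted p = 0.050 with limma). Ank2, ankyrin-B, was at 121, 116, 120 and 125 FPKM against 144, 138 and 131 FPKM (-0.19, adjusted p = 0.080 with limma). In all 3, all CrT-/y mice lay under all CrT+/y mice. The same held for Sptbn4 and Nedd4l, which were not called, and the other partners of this list overlapped. Of all tested genes, 21.6% did not overlap in either direction.

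Of 6 tested gamma subunit genes, Cacng2 and Cacng3 were lower (-0.51 and -0.38, adjusted p = 0.032 and 0.091 with limma). Their products, although named after calcium channels, are known chiefly as auxiliary subunits of AMPA receptors. Cacng2 was at 19.2, 18.5, 18.8 and 18.6 FPKM in CrT-/y and at 32.0, 25.6 and 23.7 FPKM in CrT+/y mice. Of 12 tested calcium channel partners, 4 were lower: Akap5, a scaffold that brings kinases and calcineurin to L-type channels (-0.42, adjusted p = 0.037 with limma), and the active zone proteins Erc1 (-0.34, 0.059), Rimbp2 (-0.22, 0.056) and Rims1 (-0.22, 0.095). In the sodium leak complex, a voltage-independent relative of these channels, 0 of 4 were lower, with the smallest p in Unc79 (-0.16, adjusted p = 0.171 with limma), and Rest, a repressor of neuronal channel genes, was at 0.672 to 0.944 FPKM and was not tested.

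The partner calls differed in how they held up over the 21 alternatives. Cacng2 was called in 20, Akap5 in 18, Erc1 in 13, Nfasc in 12 and Rimbp2 in 9, while Scn8a was called in 7, Ank3, Ank2 and Cacng3 in 6 each and Rims1 in 5. The number of partner genes called lower fell from 9 to between 3 and 5 under the other scalings between animals and ranged from 0 to 17 with single mice left out. It was 0 without CrT-/y replicate 1, 1 without CrT-/y replicate 2, 2 without CrT-/y replicate 0 or CrT+/y replicate 1, 3 without CrT-/y replicate 3 or CrT+/y replicate 2. Omitting CrT+/y replicate 3 gave 17, in a fit where 18.4% of all tested genes were lower.

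**Figure D5:**
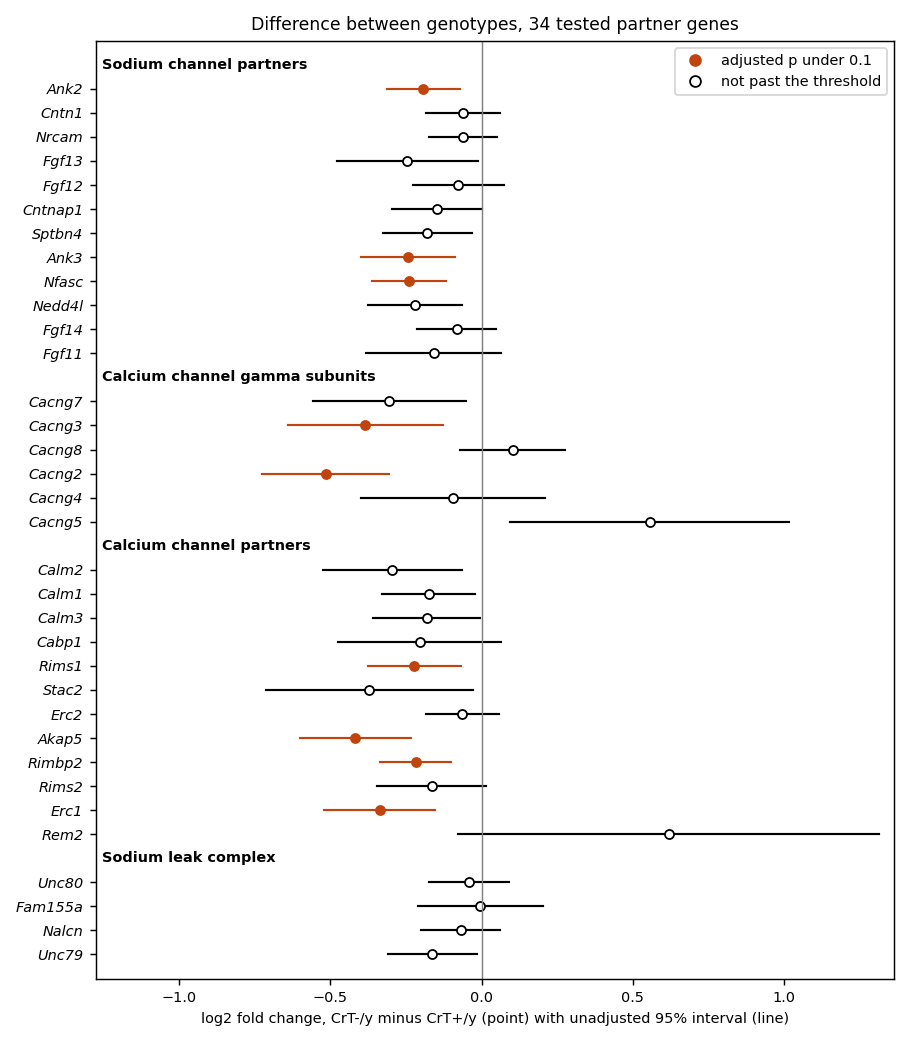
Log2 fold change of the 34 tested partner genes (CrT-/y minus CrT+/y, horizontal axis) with unadjusted 95% intervals, by list and, within a list, by level; filled points are past the adjusted threshold. The 9 filled points all lie below 0, and the 3 estimates above 0 are Rem2, Cacng5 and Cacng8.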

How the data were processed

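RNA-seq of whole cortex from 4 CrT-/y and 3 CrT+/y males was used, with groups and numbers taken from the sample labels. The authors mapped read pairs with the Tuxedo protocol against mm10 and known transcripts, kept unique alignments to known exons or junctions with at most 2 mismatches, and deposited FPKM per gene and animal. The submitters' processing notes name Bowtie and Cuffnorm without versions. FPKM are not counts, so limma (version 3.58.1, R 4.3.3) was fitted to log2(FPKM + 0.1) on genotype with a variance trend, over genes averaging 1 FPKM or more, with Benjamini-Hochberg adjustment. Exact permutation tests (two-sided) used all 35 splits. The fit was tested on simulated data. The labels name separate animals but no litters. The limma p-values set the genotype difference against the variation between these animals, moderated by the variance trend over all tested genes. Positions, lengths and overlaps came from GENCODE M21, where 23310 symbols matched directly, 648 as older names and 388 not at all. Python 3.11.15 served for the other steps, with pandas 2.3.3, scipy 1.17.1 and numpy 2.4.6.

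The values of 2 channel genes are not reported here, although counts, sums and medians include them. The channel genes, partner and marker lists were chosen with earlier results of these data known. Values per animal are given for called genes, genes whose groups do not overlap and the 3 smallest p-values of each subunit group; Scn2a1 is beyond that rule and was added after its values were seen. Of each partner or marker list, called genes are named or, with none, that of smallest p; the values of the others named were chosen after they were seen. Alternatives were pseudocounts of 1 and 0.01, no filter or a mean of 0.1 or 5 FPKM, 3 scalings, a length correction, no trend, array weights, a replicate block alone or with that correction, omission of single animals, and striatal marker level as a covariate. The last, and the alternatives for the partner genes, were added after the data were seen.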

Additional observations from a re-analysis of the deposited data

Results flagged for a closer look

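Among the 4 CrT-/y animals, Cacnb2 was at 13.07 FPKM in replicate 3, apart from 14.05 to 14.22 FPKM in the others, and Cacnb4 was at 67.1 FPKM in replicate 0, apart from 60.1 to 61.1 FPKM in the others. In both, the gap to the nearest animal as a share of the group's range was above Dixon's 95% critical value. Of 42 groups of 4 examined in this way 2 stood out, where chance gives about 1 in 20.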

How the results depend on the processing

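Slc6a8 kept its call in 21 of 21 alternatives (-1.10 to -0.94). Scn8a kept its sign in all of them and its call in 7. The number of channel genes lower fell from 1 to 0 with quantile normalization, upper quartile scaling, median centring, the length correction, no trend, both replicate blocks and the striatal covariate, and was 0 to 4 with single animals left out, with 0 to 2 higher. The cause was not tested. Over all genes, 941 lower and 377 higher became 524 and 206 without a filter, and the lower count became 555 with quantile normalization, 463 with upper quartile scaling (741 higher), 527 with median centring and 625 without a trend. The higher count became 577 with the length correction and 602 with array weights. With the covariate there were 342 lower and 130 higher. With single animals left out 53 to 2394 were lower and 11 to 1342 higher. The share of calls that were higher was 28.6%, against 48.8%, 61.5% and 48.2% with these scalings and 46.5% with the length correction. The 9 lower partner genes became 5 without a filter, with median centring or without a trend, 3 with quantile normalization, upper quartile scaling, the length correction or the covariate, and 0 to 17 with single animals left out, with 0 to 2 higher. The depth per library is not in the table. The study lists read numbers per replicate, which were not used here, so the counting error of genes of low level was not estimated.

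The replicate numbers were not used as pairs, since nothing in the labels ties a number to a litter. Deviations from the group means correlated at -0.078, 0.046 and -0.051 between animals of the same number. So few correlations cannot exclude that the numbers pair the animals. A replicate block on numbers 1 to 3, without CrT-/y replicate 0, gave 416 genes lower and 167 higher, 0 channel genes and 3 partner genes lower, and with the length correction 229, 137, 0 and 2; Scn8a was at -0.20 (adjusted p = 0.172 with limma) and -0.13 (0.297).

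Of 23 tested channel genes, 12 kept their sign throughout. The other 11, all with estimates near 0 but for Scn4b, changed sign as follows. Quantile normalization gave Cacna1c 0.020, Cacna2d3 0.017, Cacnb1 0.033, Scn2a1 0.012, Scn2b 0.012 and Scn3b 0.051. Upper quartile scaling gave Cacna1c 0.046, Cacna1g 0.022, Cacna2d3 0.023, Cacnb1 0.032, Scn2a1 0.011, Scn2b 0.0082 and Scn3b 0.049. Median centring gave Cacna1c 0.022, Cacnb1 0.0074 and Scn3b 0.024. The length correction gave Cacna1c 0.050, Cacna1e 0.021, Cacna1g 0.029, Cacna2d3 0.0077, Cacnb1 0.016, Scn2a1 0.019, Scn2b 0.0012 and Scn3b 0.038. The replicate block gave Scn3b 0.0069, and with the length correction Cacna1c 0.047, Cacna1e 0.017, Cacna1g 0.051, Cacna2d3 0.0013, Cacnb1 0.0035, Scn2a1 0.027 and Scn3b 0.058. The covariate gave Scn4b -0.13. With single animals left out, the ranges that crossed 0 were Cacna1c -0.040 to 0.0049, Cacna2d3 -0.11 to 0.015, Cacnb1 -0.049 to 0.0015, Cacnb3 -0.014 to 0.11, Scn2b -0.10 to 0.0062, Scn3b -0.088 to 0.043, Scn4b -0.071 to 0.55 and Scn7a -0.15 to 0.014.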
